A study of Mus musculus with 12 samples.

Results

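The 10 genes described here belong to the JNK cascade, a stress-activated branch of MAP kinase signalling. They are the kinases Map2k4 and Map2k7, the JNK genes Mapk8, Mapk9 and Mapk10, the scaffold genes Mapk8ip1, Mapk8ip2 and Mapk8ip3, and the transcription factor genes Jun and Atf2. They were taken by symbol from the deposited values in CPM (a gene's reads scaled to a common library size), and 10 of 10 were found among the 32494 genes listed. The genes were selected on results of this same group comparison, with the CPM of Map2k4 leading. Their group differences are therefore given as values with errors, and no p-value is printed for them. Counts of them past the limma threshold describe the selection, and nothing is read from them.

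RNA was sequenced from the hypothalamus of 12 male mice, 1 library each, 5 weeks after tamoxifen. The word control stands in all 12 titles, those of the mice labelled cKO included, and is not explained. All mice carried floxed Smc3 and received tamoxifen. The 7 mice labelled WT lacked the transgene Camk2a-cre/ERT2 and the 5 labelled cKO carried it. This transgene makes a tamoxifen-activated recombinase under a promoter of forebrain excitatory neurons, so other cells of the tissue keep the floxed gene. An age of 8 weeks is stated, for no named step. The study asked what Smc3, which encodes a cohesin subunit, does in adult neurons.

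In the JNK cascade a MAP3 kinase phosphorylates the kinases MKK4, made from Map2k4, and MKK7, made from Map2k7. MKK4 prefers the tyrosine and MKK7 the threonine of the activation loop of JNK, and MKK4 also acts on p38 kinases. JNK1 and JNK2, from Mapk8 and Mapk9, are made in most tissues, while JNK3, from Mapk10, is largely neuronal. Scaffold proteins of the JIP family hold the kinases together and link cargo to kinesin in axons. JNK phosphorylates c-Jun and ATF2, which bind DNA together. Transcript levels say nothing of phosphorylation, which is how this cascade is switched.

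The libraries were deep enough for all 10 genes, which rested on between 1186 reads (Jun) and 42727 reads (Mapk8ip3) per library. Totals ran from 17.1 to 24.01 M reads for 11 libraries, and WT 1 held 68.7 M. Smc3, the floxed gene, was at 76.8 to 85.7 CPM in the libraries labelled WT and at 116 to 144 CPM in those labelled cKO (limma log2 fold change 0.67, SE 0.05, adjusted p-value 3.06e-05). The targeted gene thus went against its label, and no direction below can be read as the effect of a loss of Smc3. Markers of the labelled tissue also varied. The hypothalamic peptide genes Oxt and Avp were at 0.28 to 2.33 and 0.79 to 6.46 CPM in WT 4, WT 5, cKO 12 and cKO 13, against 69.5 to 348 and 29.0 to 125 CPM in the other 8 libraries. Otp, at 11.8 to 25.2 against 34.4 to 106 CPM, and Fezf1, at 0.049 to 0.95 against 3.16 to 14.9 CPM, divided the libraries in the same way. Some markers did not: Nkx2-1 was highest in cKO 12, at 33.03 CPM, and Hcrt and Pmch were lowest in WT 11, at 0.372 and 1.03 CPM. Of the 10 hypothalamic markers, Sim1 was past the limma threshold, higher under the cKO label (0.56 in log2, SE 0.14). Pdgfra, of oligodendrocyte precursors, was also past it and higher (0.14, SE 0.04). The 3 inhibitory neuron markers summed to 525 to 941 and 659 to 1322 CPM, with overlap. Markers of the adjoining thalamus were summed over 8 genes, giving 606 to 1201 CPM in the libraries labelled WT and 391 to 707 CPM in those labelled cKO. Of these 8, Prkcd, Ntng1 and Rgs16 passed the limma threshold, all lower, and none was at 0. The 6 neuronal markers summed to 3517 to 4285 and 3806 to 4644 CPM. Beyond the fits with the thalamic score and without the libraries low in Oxt, the part of tissue makeup in the results was not tested. In a piece of tissue, fewer cells of a type and less RNA per cell cannot be told apart.

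As background, limma tested 15359 genes (mean CPM 1 or more) and placed 2172 of them (14.1%) past its threshold, an adjusted p-value of 0.05. Those higher under the cKO label numbered 1004 (6.54%) and those lower 1168 (7.6%). With GC content and exon length fitted, a setting called the GC and length correction, the split was 1300 higher and 852 lower, and after median centring 1377 higher and 1054 lower. All 10 JNK cascade genes passed the minimum of 1 CPM. Of them 2 were past the threshold, Map2k4 and Mapk10, both higher. Group ranges did not overlap for 3, Map2k4, Mapk10 and Atf2, all higher, against 6.73% of all tested genes and 3.52% in that direction. The median log2 fold change was 0.08 over the 10 genes and 0.0092 over all tested genes. In the authors' deposited table, 4.94% of all genes and 9.09% of tested genes had a false discovery rate under 0.05, a cut set here. Of the 10 genes these were likewise Map2k4 and Mapk10. The number past the limma threshold was 5 of 10 after the GC and length correction, which added Mapk8ip1, Mapk8ip2 and Atf2. It was 2 with the thalamic marker score as a covariate, and 2 with the 4 libraries low in Oxt left out, a choice made after seeing the data. Over all tested genes, limma called 2152 of 14515 after the GC and length correction and 749 of 15359 with the thalamic score. Without the 4 libraries low in Oxt it called 1580 of 15364.

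**Figure D1:**
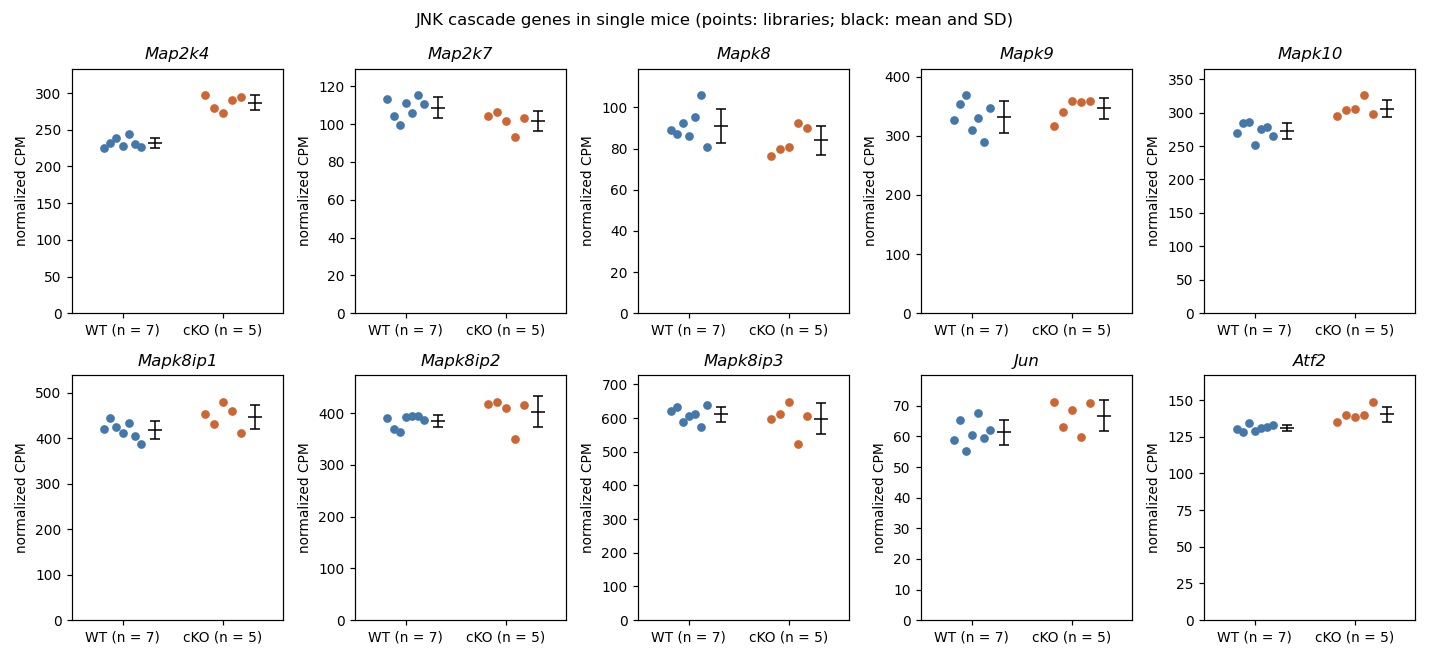
Normalized CPM of the 10 JNK cascade genes, 1 panel a gene with its own axis from 0, for 7 libraries labelled WT and 5 labelled cKO (points), with the mean and SD beside them. Map2k4 shows the widest separation, with 226 to 245 CPM against 273 to 298 CPM, while most other panels overlap.

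Of the pair of kinases that activate JNK, only Map2k4 had group ranges that did not overlap. Map2k4 had a lowest, median and highest value of 226, 230 and 245 CPM in the libraries labelled WT. It was at 298 CPM in cKO 8, 280 in cKO 9, 273 in cKO 12, 290 in cKO 13 and 294 in cKO 14. Each library labelled cKO thus lay above each labelled WT, and the lowest of them was cKO 12, which was also lowest in thalamic markers. The means were 232 ± 6.95 CPM (SD, n = 7) and 287 ± 10.2 CPM (SD, n = 5), a ratio of 1.24. The log2 fold change was 0.30 (SE 0.03, 95% interval 0.23 to 0.38) on the scale of log2(CPM + 1), and the authors' deposited table gives 0.31. It was 0.28 after the GC and length correction, 0.35 with the thalamic score as a covariate and 0.33 without the 4 libraries low in Oxt. By size of log2 fold change it ranked 1345 of 15359, and 119 of the 1004 genes past the threshold and higher had a larger one. Among the 384 tested genes within 0.25 log2 units of its mean level, Map2k4 itself included, 1 had a larger positive log2 fold change. Map2k4 was selected on this same difference, so these ranks describe the selection and are no support for it.

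Spread within groups was small for Map2k4. Such spread enters the group comparison on which the genes were selected, so it is a description only. The residual SD of Map2k4 was above that of 5.99% of genes of like level. For Atf2 this share was 2.27%, for Mapk10 18.1% and for Mapk8 73.6%. Among the 10 genes, Atf2 and Map2k4 thus varied least between mice of a group for their level, and Mapk8 most.

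Map2k7 ranged from 99.7 to 116 CPM in the libraries labelled WT, with a median of 111. The libraries labelled cKO had 104 CPM in cKO 8, 107 in cKO 9, 102 in cKO 12, 93.1 in cKO 13 and 103 in cKO 14. The ranges overlapped and cKO 13 was lowest. Its log2 fold change was -0.09 (SE 0.04, 95% interval -0.19 to 0.0014), or -0.045 after the GC and length correction, with means of 109 ± 5.58 (SD, n = 7) and 102 ± 5.17 CPM (SD, n = 5). In GENCODE M21 its exons share 35.2% of their bases with the gene Gm49320 on the same strand. That symbol is not among the 32494 genes listed, so the overlap is not shown to touch the read count of Map2k7. The count would be uncertain where the authors' annotation holds both genes, the other under a different name.

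The balance of both activating kinases can be read within a library, where scaling cancels. Per kb of exon length, the ratio of Map2k4 to Map2k7 was 1.63 to 1.96 in the libraries labelled WT, with a mean of 1.76 ± 0.135 (SD, n = 7). It was 2.35 in cKO 8, 2.16 in cKO 9, 2.21 in cKO 12, 2.56 in cKO 13 and 2.34 in cKO 14, with a mean of 2.32 ± 0.156 (SD, n = 5). The ranges did not overlap, and the ratio was built from the genes' own group values, so this adds no support to them.

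**Figure D2:**
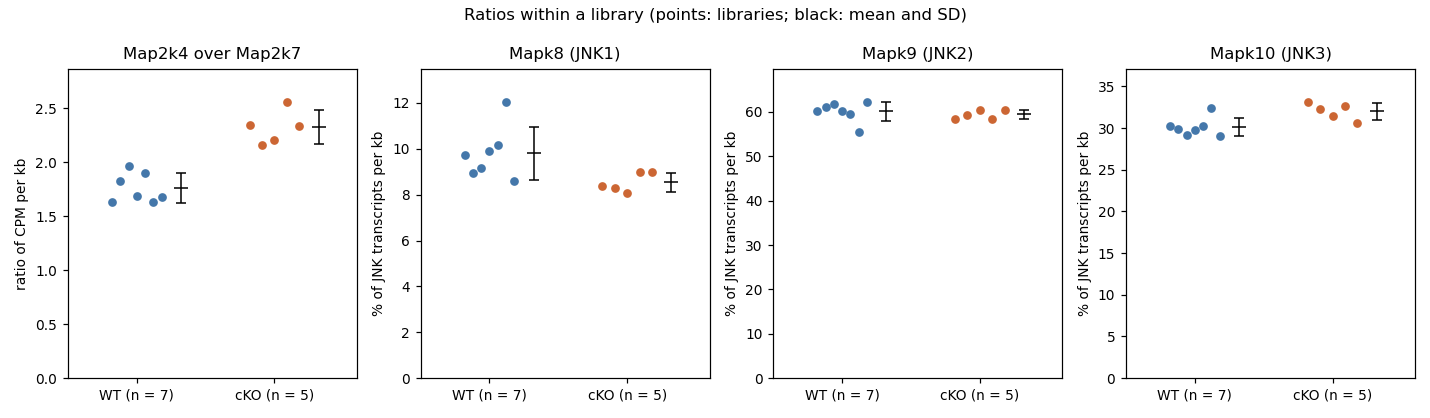
Ratio of Map2k4 to Map2k7 and the share of each JNK gene in the sum of the 3, all per kb of exon length, for 7 libraries labelled WT and 5 labelled cKO (points) with mean and SD. The ratio runs from 1.63 to 1.96 and from 2.16 to 2.56, while the shares of Mapk9 overlap fully at 55.5 to 62.3% and 58.4 to 60.5%.

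The region around the first of 2 RefSeq starts of Map2k4 is shown because this gene differed most, with those of Mapk10, also the first of 2 starts, and of Jun, a target of the cascade. Promoters from RefSeq (GRCm38.p6) cover 250 bases before and 50 after each start, and 9 of the 10 genes matched, Mapk8ip1 being the one without an entry. Sequences run 5′ to 3′ on the gene's strand, and capitals mark a match to a searched motif. The motifs were the AP-1 site TGACTCA, the cyclic AMP response element TGACGTCA and the variant TGACATCA, searched on both strands. These were found in 5.20%, 1.79% and 3.62% of 32851 promoters of this length. Of the 13 promoters of the 9 genes, the first of Mapk10 held TGACGTCA, beginning 29 bases before the start, and that of Jun held TGACATCA, beginning 45 bases before it. Neither match overlaps another, and a match is not evidence of binding. No searched letters are in either window of Map2k4 or in the second of Mapk10.
Map2k4, chr11:65788310-65788609, minus strand: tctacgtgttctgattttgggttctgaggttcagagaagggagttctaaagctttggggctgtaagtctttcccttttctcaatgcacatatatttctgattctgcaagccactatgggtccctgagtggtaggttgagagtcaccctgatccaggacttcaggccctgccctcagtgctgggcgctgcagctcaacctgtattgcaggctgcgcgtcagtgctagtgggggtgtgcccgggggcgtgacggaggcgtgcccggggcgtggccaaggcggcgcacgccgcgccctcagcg
Mapk10, chr5:103211285-103211584, minus strand: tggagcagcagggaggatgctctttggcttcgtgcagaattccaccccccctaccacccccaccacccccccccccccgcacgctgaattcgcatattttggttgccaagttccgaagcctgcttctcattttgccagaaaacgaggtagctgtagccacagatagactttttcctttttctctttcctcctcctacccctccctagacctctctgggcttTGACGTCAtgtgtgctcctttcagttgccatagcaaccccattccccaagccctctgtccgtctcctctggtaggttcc
Jun, chr4:95052173-95052472, minus strand: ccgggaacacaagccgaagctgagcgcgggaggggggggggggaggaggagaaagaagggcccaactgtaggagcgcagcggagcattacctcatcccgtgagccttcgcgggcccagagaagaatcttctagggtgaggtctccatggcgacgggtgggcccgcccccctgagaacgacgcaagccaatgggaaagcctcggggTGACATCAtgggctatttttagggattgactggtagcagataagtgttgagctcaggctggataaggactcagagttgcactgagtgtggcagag

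Of the 3 JNK genes, Mapk10 had group ranges that did not overlap. Mapk10 (JNK3) had a lowest, median and highest value of 252, 275 and 286 CPM in the libraries labelled WT. It was at 295 CPM in cKO 8, 303 in cKO 9, 306 in cKO 12, 327 in cKO 13 and 298 in cKO 14. The ranges did not overlap, by a gap from 286 to 295 CPM. Means were 273 ± 11.6 (SD, n = 7) and 306 ± 12.4 CPM (SD, n = 5), and the log2 difference was 0.16 (SE 0.04, 95% interval 0.08 to 0.25). It was 0.19 after the GC and length correction and 0.20 with the thalamic score.

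Mapk9 (JNK2) overlapped fully. It ran from 290 to 369 CPM in the libraries labelled WT, with a median of 331. The libraries labelled cKO had 317 CPM in cKO 8, 339 in cKO 9, 358 in cKO 12, 357 in cKO 13 and 360 in cKO 14. Each of these values lay inside the range of the libraries labelled WT. Between groups the log2 fold change was 0.06 (SE 0.06, 95% interval -0.06 to 0.19).

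Mapk8 (JNK1) had overlapping ranges with a lower mean under the cKO label. It ran from 80.8 to 106 CPM in the libraries labelled WT, with a median of 89.2. It was at 76.6 CPM in cKO 8, 79.9 in cKO 9, 80.7 in cKO 12, 92.3 in cKO 13 and 90.3 in cKO 14. Its log2 fold change was -0.11 (SE 0.07, 95% interval -0.26 to 0.03). Its sign turned with the thalamic score as a covariate, to 0.030, so no direction is given for it.

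Per kb of exon length, Mapk9 was the most abundant JNK transcript. It made up 60.1 ± 2.22% (SD, n = 7) of the JNK sum under the WT label and 59.4 ± 1.01% (SD, n = 5) under the cKO label. Mapk10 made up 30.1 ± 1.115% and 32.02 ± 1.02%, and Mapk8 9.80 ± 1.14% and 8.54 ± 0.418%, with overlapping ranges for both. The JNK sum was 81.5 ± 4.33 and 85.8 ± 3.88 CPM per kb, again with overlap. These shares depend on the annotated exon lengths, 6.78 kb for Mapk9, 11.1 kb for Mapk10 and 11.4 kb for Mapk8. The lengths of the transcripts made in this tissue are not known. Without division by length, the means under the WT label were 332, 273 and 91.0 CPM, in the same order.

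The JIP scaffold genes gave overlapping ranges. Mapk8ip1 (JIP1) ran from 388 to 445 CPM in the libraries labelled WT, with a median of 422. It was at 453 CPM in cKO 8, 433 in cKO 9, 481 in cKO 12, 460 in cKO 13 and 412 in cKO 14. Between groups the log2 fold change was 0.10 (SE 0.05, 95% interval -0.00086 to 0.19). In the fit corrected for GC content and length it was 0.18. Its transcripts hold 58.8% GC, the highest share of the 10 genes.

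Mapk8ip2 (JIP2) ran from 364 to 395 CPM in the libraries labelled WT, with a median of 391. It was at 418 CPM in cKO 8, 422 in cKO 9, 410 in cKO 12, 349 in cKO 13 and 416 in cKO 14. Of the libraries labelled cKO, 4 lay above all labelled WT, while cKO 13 lay below all of them. The log2 fold change was 0.06 (SE 0.05, 95% interval -0.04 to 0.17). It was 0.11 without cKO 13 and 0.14 after the GC and length correction.

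Mapk8ip3 (JIP3), a kinesin-binding scaffold of axonal transport, ran from 574 to 640 CPM in the libraries labelled WT, with a median of 613. It was at 598 CPM in cKO 8, 611 in cKO 9, 649 in cKO 12, 523 in cKO 13 and 607 in cKO 14. The libraries labelled cKO thus held both the highest and the lowest value. The log2 fold change was -0.04 (SE 0.05, 95% interval -0.14 to 0.07). It was 0.10 after the GC and length correction and 0.012 without cKO 13, so its sign is not settled. Its exons share 10.7% of their bases with Eme2 on the same strand and 8.99% with Mrps34 on the other in GENCODE M21. The strand setting of the counting is not given in the sources used here, so reads from these stretches cannot be told apart.

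The transcription factor genes at the end of the cascade had small differences. Atf2 had a lowest, median and highest value of 128, 131 and 134 CPM in the libraries labelled WT. It was at 135 CPM in cKO 8, 140 in cKO 9, 138 in cKO 12, 140 in cKO 13 and 149 in cKO 14. The ranges did not overlap, though by less than 1 CPM between WT 5 and cKO 8. Means were 131 ± 2.26 (SD, n = 7) and 140 ± 5.10 CPM (SD, n = 5), and the log2 difference was 0.10 (SE 0.03, 95% interval 0.03 to 0.17). It was 0.08 after the GC and length correction and 0.12 with the thalamic score.

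Jun was the gene with the fewest reads of the 10. It ran from 55.2 to 67.7 CPM in the libraries labelled WT, with a median of 60.6. It was at 71.3 CPM in cKO 8, 63.1 in cKO 9, 68.8 in cKO 12, 59.7 in cKO 13 and 70.8 in cKO 14. Of the 5 libraries labelled cKO, 3 lay above all labelled WT, and 2 lay among them. The log2 fold change was 0.12 (SE 0.06, 95% interval -0.0036 to 0.24). An antisense gene, Junos, overlaps 7.28% of its exon bases and was at a mean of 4.76 CPM.

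**Figure D3:**
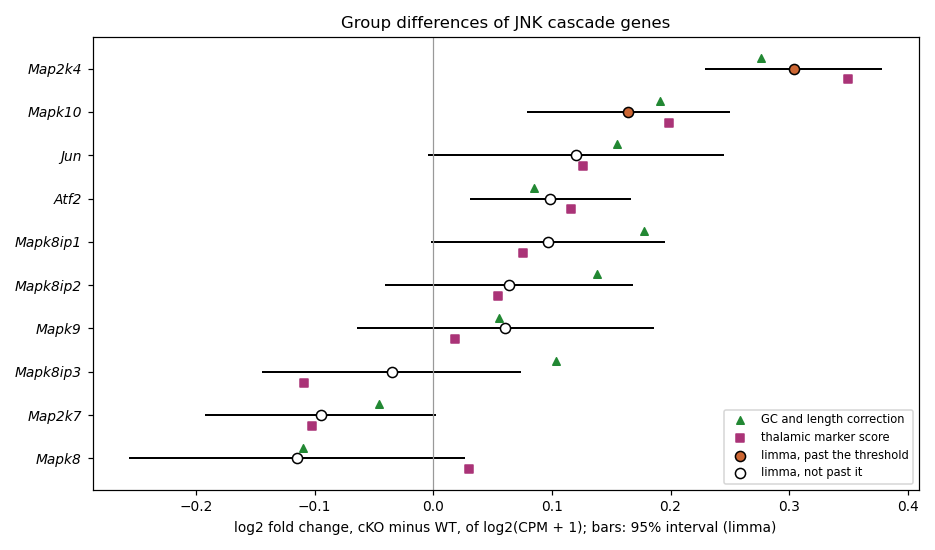
Log2 fold change (cKO minus WT, on log2(CPM + 1)) of the 10 JNK cascade genes by limma, with 95% intervals (bars), and the same value after the GC and length correction (triangles) and with the thalamic marker score as a covariate (squares). Map2k4, Mapk9, Mapk10, Mapk8ip1, Mapk8ip2, Jun and Atf2 stay above 0 in all 3 fits and Map2k7 stays below 0. Mapk8 and Mapk8ip3 change sign in 1 of them. The genes were selected on this comparison, so the signs are a description only.

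Levels of different genes were compared per kb of exon length, as means of CPM per kb over the libraries labelled WT. Mapk8ip1 was highest at 90.1, followed by Mapk8ip2 at 67.5, Map2k4 at 49.8, Mapk9 at 49.0 and Mapk8ip3 at 42.0. Lower were Map2k7 at 28.4, Mapk10 at 24.5, Jun at 19.2, Atf2 at 16.0 and Mapk8 at 7.96. Among neighbours in this order, ranges overlapped between Map2k4 and Mapk9 and between Mapk9 and Mapk8ip3, and not between the others. The libraries labelled cKO gave the same order except that Mapk10, at 27.5, stood before Map2k7, at 26.6, with overlapping ranges. There Map2k4, at 61.5, overlapped Mapk8ip2, at 70.7, and no longer overlapped Mapk9, at 51.0. Exon lengths came from GENCODE M21, and longer annotated exons lower a gene's value.

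In no library were all 10 genes the highest or the lowest of their group. In the libraries labelled WT, WT 5 and WT 11 each held the highest value of 3 genes and the lowest value of 3 and 2 others. In those labelled cKO, cKO 13 was lowest in its group for Map2k7, Mapk8ip2, Mapk8ip3 and Jun and highest for Mapk8 and Mapk10. The lowest values of Mapk8, Mapk9, Mapk10 and Atf2 were in cKO 8, which had the highest of Map2k4 and Jun.

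The genes whose pattern was most like that of Map2k4 were sought among all tested genes after each group's mean was taken off, over 12 libraries. The largest Pearson r was that of Rnf11, at 0.94, followed by Nudt2 at 0.90, Cwf19l2 at 0.88, Nrg3 at 0.87 and Rpl37rt at 0.87. These are the top values of 15358 and a description only. Rnf11, which encodes a RING-type ubiquitin ligase, averaged 259 ± 7.36 CPM (SD, n = 7) under the WT label and 296 ± 13.4 CPM (SD, n = 5) under the cKO label, a difference that limma gave as 0.19 on the log2 scale (SE 0.04, adjusted p-value 0.00756). Nrg3, a neuregulin gene, moved with Map2k4 within groups and differed the other way between them, by -0.15 in log2 (limma SE 0.04, adjusted p-value 0.0248). Nrg3 was not called once the thalamic score was fitted (-0.08, limma adjusted p-value 0.284), after the GC and length correction (-0.12), without the 4 libraries low in Oxt (-0.12) or without cKO 12 (-0.14). No other JNK cascade gene was close, with r from -0.43 (Map2k7) to 0.30 (Mapk8).

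Neighbours on the chromosome were taken from the RefSeq order of tested genes, 5 on each side. Of the 10 around Map2k4, limma called 0, with 1 at an unadjusted p-value under 0.05, and edgeR's quasi-likelihood test and DESeq2 called 0 each. Their log2 fold changes ran from -0.49 to 0.04. Around Mapk10, 3 of 10 were called, all higher (Gpat3, Hsd17b11 and Nudt9). For Mapk8ip1 and Mapk8ip2, 4 of 10 were called in each case and all were lower. Atf2 had 2 called neighbours, Chn1 and Mtx2, both higher, and Jun had 1, Ift74, also higher. Map2k7 (Stxbp2 and Tgfbr3l) and Mapk8ip3 (Cramp1l and Telo2) had 2 each, all lower. Around Mapk8 and Mapk9 limma called 0 of 10 each, with 3 each at an unadjusted p-value under 0.05, while edgeR's quasi-likelihood test called 1 and 0 and DESeq2 1 and 2. Over all tested genes 6.54% were called higher and 7.6% lower, and the neighbour counts were not tested against these shares.

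The rest of the JNK pathway was described through 5 lists of 67 genes in all, of which 65 were tested and Fosl1 and Batf3 were under the CPM minimum. limma called 9 of the 65 (13.8%), 2 higher and 7 lower, beside 14.1% of all tested genes. Without WT 1, the deepest library, it called 4, which were 1 higher and 3 lower. After the GC and length correction it called 10, which were 6 higher and 4 lower, so no direction is given for the 65 genes as a whole. The median log2 fold change was -0.03, against 0.0092 over all tested genes. Among the 24 MAP3 kinases and kinases above them, 3 (12.5%) were called, 3 lower and 0 higher. Over all tested genes 7.6% were called lower and 6.54% higher. Of the 3, 2 are described here. The lost calls given below are those of these 2 genes only and say nothing of the third. Map3k9 (MLK1), a mixed-lineage kinase that phosphorylates both JNK activators, averaged 94.1 ± 8.57 CPM (SD, n = 7) under the WT label and 79.2 ± 5.27 CPM (SD, n = 5) under the cKO label, or -0.24 in log2 by limma (SE 0.06, adjusted p-value 0.0249). Map3k3 (MEKK3) was at 32.6 ± 1.78 against 28.0 ± 2.57 CPM, or -0.22 in log2 by limma (SE 0.06, adjusted p-value 0.0274). The ranges of both overlapped between the groups. With the thalamic score, Map3k9 (-0.16, limma adjusted p-value 0.231) and Map3k3 (limma adjusted p-value 0.2502) were not past the threshold. Map3k3 was not past it without the 4 libraries low in Oxt either (-0.15). The log2 fold change of Map3k3 ran from -0.23 to -0.15 over 11 alternatives. After the GC and length correction neither gene was past the threshold (-0.15 and -0.18), and the calls of this list were 3 higher and 1 lower. Over all genes tested in that fit, 1300 were called higher and 852 lower. The 3 higher were Map3k10, Map3k4 and Taok3, which limma did not call without the correction, except Taok3 when cKO 13 was left out. Map3k9 was not past the threshold without WT 1 (-0.24) or cKO 13 (-0.20), nor Map3k3 without WT 1 (-0.21), WT 11 (-0.20), cKO 12 (-0.18) or cKO 13 (-0.19). The neuronal kinase genes Map3k12 (DLK) and Map3k13 (LZK), which carry axon injury signals to JNK, had log2 fold changes of -0.08 (SE 0.04) and 0.06 (SE 0.06) and were not past it.

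Of 10 scaffold, adaptor and GTPase genes, Flna was called and was lower, beside 7.6% of all tested genes called lower. It encodes filamin A, an actin cross-linker that also binds MKK4. Flna was at 117 ± 13.2 CPM (SD, n = 7), from 98.5 to 138, against 85.0 ± 5.80 CPM (SD, n = 5), from 79.1 to 93.7. The ranges did not overlap, as for 3.2% of tested genes in that direction, and limma gave -0.45 in log2 (SE 0.07, adjusted p-value 0.00396). It was -0.56 with the thalamic score and -0.36 after the GC and length correction, past the threshold in both. Spag9, which encodes the scaffold JIP4, had a log2 fold change of 0.11 (SE 0.05), and Rac1 and Cdc42, GTPases that start the cascade, had 0.09 (SE 0.04) and 0.10 (SE 0.05), none past it. Cdc42 was past it with the thalamic score and Rac1 without the 4 libraries low in Oxt, both higher.

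Of the 11 phosphatase and inhibitor genes, limma called 0, while 5 had an unadjusted p-value under 0.05, as did 4773 of the 15359 genes tested. edgeR's quasi-likelihood test and DESeq2 also called 0, with 4 each at an unadjusted p-value under 0.05. After the GC and length correction 1 was called, Dusp8, which encodes a brain phosphatase of JNK and p38. Among 10 tested AP-1 and ATF partners of c-Jun, 3 were called and all were lower, beside 7.6% of all tested genes called lower. Fosl2, a partner of c-Jun in AP-1, was at 14.04 ± 1.24 CPM (SD, n = 7), from 12.1 to 15.9, against 8.69 ± 2.18 CPM (SD, n = 5), from 6.50 to 11.2, without overlap. By limma this was -0.66 in log2 (SE 0.12, adjusted p-value 0.00614). Atf3 was low, at 1.21 ± 0.238 against 0.725 ± 0.122 CPM, resting on 12 to 80 reads, or -0.35 in log2 by limma (SE 0.09, adjusted p-value 0.0253). The ratio of its mean CPM was 0.60, and its log2 fold change ran from -0.74 to -0.24 over the 9 alternatives that gave a value. Atf7, a close relative of Atf2, was at 29.3 ± 2.08 against 25.2 ± 1.84 CPM, or -0.21 in log2 by limma (SE 0.06, adjusted p-value 0.0329). With the thalamic score as a covariate limma called 0 of these 10, with 4 at an unadjusted p-value under 0.05, as without it. Over all 15359 tested genes that fit called 749, with 3661 at an unadjusted p-value under 0.05. Atf3 was then at -0.41 and Atf7 at -0.26, no smaller than without the score. The log2 fold change of Fosl2 was then -0.48 (limma adjusted p-value 0.0722), and it was -0.40 without the 4 libraries low in Oxt (limma adjusted p-value 0.02897). Fosl2 was the 1 gene of this list called without those libraries, where Atf3 was under the CPM minimum and Atf7 was at -0.20. Atf7 was not past the threshold after the GC and length correction (-0.16) or, at an unchanged -0.21, over all genes above 0, nor was Atf3 after quantile normalization (-0.24). With a single mouse left out, Atf3 was not past it without cKO 9 (-0.34) or cKO 12 (-0.32), and it fell under the CPM minimum, with no value, without WT 1, WT 4, WT 5, WT 6 or WT 15. Atf7 was not past it without WT 1 (-0.20), WT 4 (-0.20), WT 5 (-0.20), cKO 8 (-0.20), cKO 13 (-0.20) or cKO 14 (-0.18).

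Of 10 neuronal JNK substrates and cell death genes, 2 were called and both were higher, beside 6.54% of all tested genes called higher. Map2, a dendritic microtubule protein, averaged 1267 ± 65.8 CPM (SD, n = 7) under the WT label and 1507 ± 128 CPM (SD, n = 5) under the cKO label, a difference that limma gave as 0.25 on the log2 scale (SE 0.06, adjusted p-value 0.0162). Stmn2 (SCG10), a microtubule regulator of axons, was at 484 ± 24.6 against 555 ± 38.5 CPM, or 0.20 in log2 by limma (SE 0.05, adjusted p-value 0.0224). The neuronal microtubule gene Map1b had 0.0089 (SE 0.07), and the death genes Bcl2l11, Bbc3 and Hrk had -0.30 (SE 0.11), -0.20 (SE 0.07) and -0.28 (SE 0.19), none past the threshold. Bbc3 was past it and lower with eBayes without trend, without the 4 libraries low in Oxt and without cKO 12. Bcl2l11 was past it and lower without WT 7. Dcx, of the same list, was called lower by DESeq2, and without WT 5, WT 7 or cKO 8 it was past the limma threshold. Map2 was not past it after quantile normalization (log2 fold change 0.16, limma adjusted p-value 0.150) or with the thalamic score (0.21, limma adjusted p-value 0.118). Adjusted over all genes above 0 it was not past it at the same log2 fold change (limma adjusted p-value 0.0518). Stmn2 was not past it without WT 1 (0.18).

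**Figure D4:**
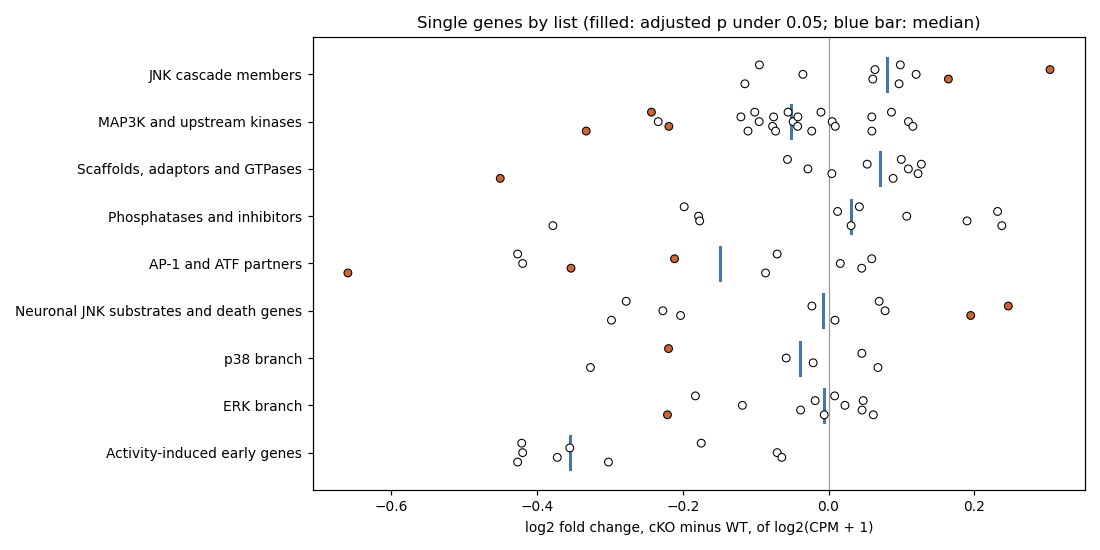
Log2 fold change (cKO minus WT, on log2(CPM + 1)) of each tested gene, 1 row a list, with filled points for a limma adjusted p-value under 0.05 and a bar at each median. Called genes lie above 0 among the JNK cascade genes and the neuronal substrates and below 0 in the other lists that hold any.

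The ERK and p38 branches, which run beside JNK, were set against it through 18 genes. Of these 17 were tested, with Mapk13 under the CPM minimum. limma called 2 of 17 (11.8%) and both were lower, beside 7.6% of all tested genes. Mapk11 (p38 beta) averaged 39.1 ± 2.54 CPM (SD, n = 7) under the WT label and 33.5 ± 3.40 CPM (SD, n = 5) under the cKO label, or -0.22 in log2 by limma (SE 0.06, adjusted p-value 0.0356). Mapk7 (ERK5) was at 24.2 ± 1.52 against 20.6 ± 2.10 CPM, or -0.22 in log2 by limma (SE 0.06, adjusted p-value 0.0356). Mapk7 was not called once the thalamic score was fitted (-0.19, limma adjusted p-value 0.19), after the GC and length correction (-0.14), over all genes above 0 or without the 4 libraries low in Oxt, where Mapk12 was called instead, also lower. Over all genes above 0 Mapk11 was not past it either, and both genes kept their log2 fold change of -0.22 there. The ERK kinase gene Mapk3, its activator Map2k1 and the p38 kinase gene Mapk14 had log2 fold changes of -0.04 (SE 0.04), 0.05 (SE 0.04) and -0.02 (SE 0.04). Map2k3 and Map2k6, which activate p38, had -0.06 (SE 0.06) and 0.07 (SE 0.05). Without WT 1, cKO 9 or cKO 14, each left out alone, limma called 0 of the 17, with 2 to 4 at an unadjusted p-value under 0.05. Without WT 4, WT 6 or cKO 8 it called Mapk7 alone, and without WT 7, WT 11, cKO 12 or cKO 13 Mapk11 alone. Over the 12 fits without 1 mouse, log2 fold changes ran from -0.26 to -0.19 for Mapk11 and from -0.27 to -0.19 for Mapk7.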

How the data were processed

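Per the submitters' processing notes, FastQC 0.11.9, STAR 2.7.9a, SAMtools, Subread and featureCounts were used. Genome build, annotation and strand setting are not given in the sources used here. The authors deposited normalized CPM for 32494 genes in 12 libraries, and 0 columns were left unused. 100% of deposited CPM values were whole multiples (within 0.001 reads) of 1 step per library, so whole reads were recovered. The authors' deposited table of their own test holds log2 fold changes and p-values with false discovery rates. Its column names are those edgeR writes.

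The test was limma 3.58.1 (R 4.3.3; lmFit, eBayes with trend) on log2(CPM + 1), which understates changes of low genes, with Benjamini-Hochberg adjustment over all 15359 tested genes and a threshold of 0.05. edgeR 4.0.16 (quasi-likelihood), which called 2098 genes, and DESeq2 1.42.0, which called 2747, ran on recovered reads. On simulated counts limma recovered 100% of 194 genes changed by 1 log2 unit, among 15349 genes, with 8 false calls. The exact two-sided permutation p-value of Smc3 over 792 splits was 0.00126, the smallest possible.

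Exon length and GC content came from GENCODE M21, matched for 94.5% of tested genes. The correction fitted splines (4 degrees of freedom each) per library. Marker scores average log2(CPM + 1) across a list's genes. Replicate pairs differed by a chi-square of 3.04 to 26.3 per degree of freedom over 31 pairs. This sets separate mice against counting error only, so nothing is concluded from it. Each library counts once because each is labelled as 1 mouse. A level of 3 reads, the smallest level taken as shown, was 0.0436 to 0.178 CPM, for counting error only.

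The rule for named genes took the 10 members, Smc3, genes of each list past the threshold (at most 6 a list) and the 5 most like Map2k4. Other genes were named after their values were seen, and some genes that the rule took or the text counts are not reported here. Members and lists were chosen with earlier results of these data known. Alternatives are listed with the sensitivity results.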

Additional observations from a re-analysis of the deposited data

Results flagged for a closer look

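Over 27 named genes and both groups, 54 sets of values were searched for 1 outlying mouse, and 2 held one, where chance gives about 1 in 20, or 2.7. Mapk8ip2 was at 349 CPM in cKO 13, resting on 7356 reads, while the other libraries labelled cKO were at 410 to 422 CPM. Map2 was at 1409 CPM in WT 15, against 1222 to 1280 CPM in the other libraries labelled WT.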

How the results depend on the processing

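The alternatives were a pseudocount of 0.1, all genes above 0, a minimum of 5 CPM, quantile normalization, median centring, eBayes without trend, a thalamic marker score, a GC and length correction, edgeR, DESeq2, leaving out each mouse and, chosen after seeing the data, leaving out 4 libraries low in Oxt. With the thalamic score 749 genes were past the threshold, with GC and length corrected 2152, and leaving out a mouse gave 1158 (without WT 1) to 2302. Of the 10 JNK cascade genes, 5 passed with GC and length corrected, and 2 to 3 without a mouse. The log2 fold change was 0.28 to 0.35 for Map2k4 and 0.14 to 0.20 for Mapk10, and since the genes were selected on this comparison their calls are no sign of stability. Of the other JNK pathway genes, 4 passed with the thalamic score, and 4 (without WT 1) to 11 without a mouse. Of the ERK and p38 genes, limma called 0 over all genes above 0 (4 at an unadjusted p-value under 0.05), 1 with the thalamic score, 1 with GC and length corrected, and 0 to 2 without a mouse. Smc3 ran from 0.64 to 0.74. Signs turned for Mapk8 (0.030 with the thalamic score), Mapk8ip3 (0.10 after the GC and length correction, -0.066 to 0.012 without a mouse) and Rpl37rt (-0.0046 without cKO 8, up to 0.12). The cause was not tested. Of 590 values for the 26 named genes other than Smc3, 513 kept sign and side of the threshold, 63 lost the threshold and 10 gained it. No paired analysis was possible because each number in the labels belongs to 1 mouse. Depth does not limit the 10 genes, and low read counts limit Atf3.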

Other observations

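Jun is also an early response gene of active neurons, so other early genes were set beside it in a list of 10, with Egr2 under the CPM minimum and the other 9 tested. limma called 0 of the 9, with 3 at an unadjusted p-value under 0.05 (4773 of all 15359 tested genes), and edgeR's quasi-likelihood test and DESeq2 each called 1, Ier2. Log2 fold changes were below 0 for 9 of 9, and for 7292 of all 15359 tested genes, with a median of -0.36, while that of Jun was 0.12 (SE 0.06). Egr1 was at 68.2 against 51.9 CPM, a log2 fold change of -0.37 (SE 0.22), and Fos at 31.5 against 22.01 CPM, with -0.42 (SE 0.33). Npas4 had -0.36 (SE 0.14) and Arc -0.06 (SE 0.18). Without the 4 libraries low in Oxt, 7 of the 9 were below 0 and the median was -0.10. Junb, Fos and Fosb are also in the list of AP-1 partners.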
